A study of Mus musculus with 10 samples.

Results

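Genes that copy DNA and carry cells from G1 into S phase were followed in natural killer cells (NKC) grown from the spleens of mice without Runx3 (Runx3 -/-, KO) and of their controls (Runx3 +/+, WT). The set held 45 genes, chosen by name as parts of the replication machinery and of the G1/S step. Of these, 44 had a probe set with exactly 1 gene symbol and 43 reached a log2 signal of 5 in at least 2 arrays, the level set for testing. They stood among 9391 tested genes of 18194 with a probe set. Chaf1a was not analysed here, and the 4 probe sets of Tyms (thymidylate synthase) lay below that level. All mice were of the ICR strain and 6 weeks old, with both sexes allowed by the labels. NKC were enriched from spleen by negative selection and, per the paper, sorted for DX5. The paper reports that nearly all cells were NKp46+ NKC at the end of culture. Culture lasted 7 days, in human IL-2 at 1000 u/ml (3 arrays each of WT and KO) or in mouse IL-15 (2 arrays each), so all 4 groups were cytokine-activated. Each array stood for an individual mouse. The part of Runx3 removed in the KO is not given in the sources used here.

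Before a cell divides, the origin recognition complex (Orc genes), Cdc6 and Cdt1 load a ring of Mcm2 to Mcm7 onto DNA in G1. Cdc45 and the GINS complex then turn the ring into a running helicase, after which primase and DNA polymerases copy both strands, tethered by the sliding clamp Pcna. Many of these genes are transcribed in a wave at the G1/S border by E2F factors, so their RNA is widely read as a sign of cycling cells. NKC grow in IL-2 or IL-15, which share receptor chains.

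Promoter sequences are shown first. The set was not chosen by E2F letters, but many genes of this kind are E2F targets. A high share of E2F letters thus follows from the kind of gene chosen and is no independent support. The 250 bases before each annotated start were searched on both strands for the letters TTCGCGC, then TTGGCGC, also TTCCCGC and lastly TTGCCGC, with overlapping matches allowed (RefSeq, GRCm38.p6). Of the 45 genes, 36 had at least 1 window. The letters were present in 18 of their 42 windows (42.9%), compared with 14.3% of 9882 windows of tested genes and 7.89% of all 32851 windows. Stretches of 60 bases are printed for 5 genes that rose in KO NKC in IL-2, followed by 2 (Orc1 and Rfc3) that did not pass the test, each 5′ to 3′ on the strand of the gene with the E2F letters in capitals.
Mcm5, chr8:75109326-75109385, plus strand: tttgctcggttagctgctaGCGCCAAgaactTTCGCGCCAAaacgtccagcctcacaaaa
Mcm6, chr1:128359780-128359839, minus strand: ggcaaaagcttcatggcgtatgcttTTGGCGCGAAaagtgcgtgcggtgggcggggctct
Cdc6, chr11:98907986-98908045, plus strand: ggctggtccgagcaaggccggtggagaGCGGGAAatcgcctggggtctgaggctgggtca
Uhrf1, chr17:56303262-56303321, plus strand: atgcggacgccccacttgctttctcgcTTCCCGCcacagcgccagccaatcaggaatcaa
Rpa2, chr4:132768296-132768355, plus strand: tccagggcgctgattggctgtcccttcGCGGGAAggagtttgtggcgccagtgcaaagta
Orc1, chr4:108579394-108579453, plus strand: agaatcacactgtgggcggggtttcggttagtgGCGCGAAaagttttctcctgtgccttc
Rfc3, chr5:151651209-151651268, minus strand: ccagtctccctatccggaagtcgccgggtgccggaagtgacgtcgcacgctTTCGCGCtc
In Mcm5 and Mcm6 the matches overlapped, since the letters were read on both strands. Of 15 tested genes with the letters 8 rose in KO in IL-2, and of 19 without them 7 rose, with median differences of 1.29 and 1.38 (log2). The difference between these groups of genes was not tested. RUNX letters (TGTGGT, also TGCGGT, then TGTGGC and lastly TGCGGC) were in 57.1% of the windows of the set and in 41.9% of those of tested genes. The CCAAT box was in 59.5% and 35.1%, and the CHR letters (TTTGAA or else TTCGAA) in 14.3% and 12.2%. A match of letters is a description of the window, not a binding site.

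The deposited signals carry a step that shapes every value below. For each probe set, WT plus KO of the same number gave the same sum in every pair of a cytokine (largest difference 0.00014 in IL-2 and 0.00013 in IL-15), so differences between numbered pairs had been removed before deposit. The KO arrays of a group are therefore mirror images of the WT arrays, and KO and WT arrays do not overlap exactly when every pair differs in the same direction. KO was compared with WT within pairs for this reason. Differences are given as KO minus WT in log2 units, mean ± SD over pairs. A gene rose or fell where limma gave a Benjamini-Hochberg adjusted p under 0.05 over all 9391 genes and at least a 1.5-fold change.

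The median signal of an array was 3.20 to 3.37, and log2 5 was reached by 34.6% to 36.7% of its probe sets. The number of arrays limits the precision. Runx3 itself had 11.31, 11.57 and 12.06 in WT and 11.41, 11.15 and 10.66 in KO in IL-2, and 12.45 and 12.51 against 11.41 and 11.35 in IL-15, so its probe set did not mark the genotype in IL-2. Of 10 NKC markers 9 had a probe set and 8 were tested, 2 of which rose and 1 fell in IL-2, and Itga2 (DX5, the sort marker of the study) was under log2 5 in every array. The log2 of their summed signal was 16.97 to 17.20 in WT and 16.74 to 16.94 in KO in IL-2. That of 6 B cell markers was 8.77 to 8.89 and 11.16 to 11.18, with 2 of 2 tested genes rising and Cd79a, Cd79b, Ms4a1 and Pax5 under log2 5. That of 7 mast cell and basophil markers was 12.53 to 14.57 and 6.92 to 8.4, with 2 of 3 falling and Fcer1a, Ms4a2, Hdc and Gata2 under log2 5. Sums of 9 T cell markers (9.11 to 10.20 in WT, 10.61 to 11.04 in KO; 1 of 4 rose), 7 dendritic cell markers (10.83 to 11.82, 9.16 to 10.70; 2 of 6 rose and 2 fell) and 6 granulocyte markers (11.15 to 13.86, 8.23 to 9.43; 1 of 2 rose and 1 fell) were apart as well. Those of 6 macrophage and monocyte markers (7.59 to 10.46, 7.12 to 9.97; 1 of 4 fell) and of 4 erythroid and platelet markers (5.16 to 5.73, 5.27 to 5.87; 0 of 1) overlapped. In the T cell list Cd4, Cd8a, Cd8b1, Cd5 and Cd6 were under log2 5 in every array, as were Elane, Mpo, S100a8 and S100a9 among granulocyte markers. Bcl11b lay at 7.09 to 7.18 in WT and 10.25 to 10.34 in KO in IL-2, while Cd3d, Cd3e and Cd3g overlapped. Ctsg (11.12 to 13.85 in WT, 4.28 to 7.02 in KO) and Mmp9 (4.08 to 5.40, 8.01 to 9.33) went opposite ways. In IL-15 the sums of NKC markers (17.11 to 17.17 in WT, 16.72 to 16.78 in KO), B cell markers (9.83 to 10.74, 10.75 to 11.67), granulocyte markers (9.45 to 10.05, 8.04 to 8.39) and mast cell and basophil markers (9.79 to 11.12, 6.04 to 6.73) were apart between genotypes. Sums of T cell markers (10.23 to 11.58, 10.75 to 11.09) and dendritic cell markers (9.59 to 10.26, 9.40 to 9.98) overlapped in IL-15. So did those of macrophage and monocyte markers and of erythroid and platelet markers. The B cell sums in IL-15 nearly touched (10.74 and 10.75), and Ighm was the only B cell marker over log2 5 there. Among single tested genes, KO lay above WT without overlap in 31.1% in IL-2 and 31.7% in IL-15. It lay below WT in 23.2% and 32.9%. Of all tested genes 10.5% rose and 9.17% fell in IL-2. The part of other cells in the rise of replication genes was not tested.

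Whether loss of Runx3 changed replication genes was first asked in IL-2. In these cells 18 of the 43 tested genes rose in KO and 0 fell. All 6 genes of the Mcm2 to Mcm7 ring, the loaders Cdc6 and Cdt1, polymerase subunits and Uhrf1 were among them, with rises of 2.18-fold (Mcm4) to 6.27-fold (Ung). Across all tested genes 10.5% rose and 9.17% fell (19.7% in either direction). The median difference of the set was 1.29, beside 0.11 over all tested genes, and 38 of the 43 lay above 0, compared with 56.6% of tested genes. The count depended on the filter: with no filter on low values, when 18194 genes were tested, Cdt1 and Rpa2 alone kept their call. In bulk RNA a larger share of cycling cells and more of these RNAs per cell cannot be told apart. The paper describes weaker, not stronger, proliferation of Runx3 -/- NKC with both cytokines. Proliferation was not measured here, and higher RNA of these genes does not show that KO NKC divided more.

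Genes of chromatin and repair at the fork included the 2 highest rises. Ung, the glycosylase that removes uracil from DNA, had log2 signals of 10.11, 9.78 and 9.51 in WT and of 12.13, 12.47 and 12.74 in KO in IL-2. Every KO array lay above every WT array, a difference of 2.65 ± 0.61 (3 pairs, adjusted p = 0.0185). Uhrf1, which guides maintenance methylation to copied DNA, had 10.89, 10.85 and 10.01 in WT and 12.86, 12.90 and 13.74 in KO. The groups were again apart, by 2.59 ± 1.0 (6-fold, adjusted p = 0.0117), and pair 3 differed most. Chaf1b, a subunit of the chromatin assembly factor behind the fork, had 8.03, 7.93 and 7.36 in WT and 9.46, 9.56 and 10.14 in KO. Its rise of 1.94 ± 0.73 had an adjusted p = 0.0119. Slbp, which binds histone mRNA ends, had a difference of 1.14 ± 0.74 and did not pass (adjusted p = 0.0957). A much dimmer Slbp probe set differed by 2.91 ± 2.18.

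Of 5 licensing factors, the loaders Cdt1 and Cdc6 rose. Cdt1, the loading factor that is destroyed when S phase starts, had 11.53, 11.38 and 11.34 in WT and 13.20, 13.35 and 13.39 in KO. The arrays of each genotype were tightly grouped, and its difference of 1.90 ± 0.20 (3.72-fold) had the lowest adjusted p of the set, 0.00499. Cdc6, the ATPase that works with Cdt1, had 10.87, 10.66 and 10.07 in WT and 12.15, 12.36 and 12.95 in KO. It rose by 1.95 ± 0.83 (adjusted p = 0.036). None of the 3 subunits of the origin recognition complex passed the test. Orc2 lay lower in KO in all 3 pairs (-1.12 ± 0.94, adjusted p = 0.0791), Orc6 differed by 0.78 ± 1.70 and Orc1 by -0.06 ± 1.85. Orc1 had 6.07, 6.23 and 4.55 in WT and 5.10, 4.95 and 6.62 in KO, so that its groups overlapped fully and its pairs went both ways. It was the 1 gene of the set with a group mean under log2 5.

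All 6 genes of the helicase ring rose. Mcm2 had 10.61, 10.70 and 10.21 in WT and 12.21, 12.12 and 12.61 in KO, a rise of 1.81 ± 0.52 (3.5-fold, adjusted p = 0.0305). Mcm7 rose by 1.8 ± 0.64, Mcm3 by 1.70 ± 0.93, Mcm5 by 1.57 ± 0.78, Mcm6 by 1.42 ± 0.83 and Mcm4 by 1.13 ± 0.69, with adjusted p between 0.012 for Mcm7 and 0.0482 for Mcm4. In each of these 6 genes KO lay above WT in all 3 pairs. The factors that start the helicase had a median difference as high, 1.64 in both subgroups, but 0 of the 6 passed the test. Gins1 differed by 1.85, 0.28 and 4.79 in pairs 1, 2 and 3 (2.30 ± 2.29, adjusted p = 0.134). Cdc45 (1.84 ± 1.0), Gins2 (1.70 ± 1.33), Mcm10 (1.57 ± 1.27) and Gins3 (0.78 ± 0.57) were also higher in all 3 pairs without passing. Gins4 had 10.46, 10.19 and 10.16 in WT and 10.03, 10.30 and 10.33 in KO, with overlapping groups and a difference of -0.05 ± 0.33.

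Of 8 genes of polymerases, primase and single-strand binding, 4 rose. Pold1, the catalytic subunit of the lagging-strand polymerase, had 10.35, 10.50 and 9.72 in WT and 12.12, 11.97 and 12.75 in KO, which gave a rise of 2.09 ± 0.83 (4.26-fold, adjusted p = 0.0108). Pola2 (1.65 ± 0.39), the single-strand binder Rpa2 (1.29 ± 0.20) and the primase subunit Prim2 (1.19 ± 0.52) rose too. Pole (1.72 ± 1.40), Rpa1 (0.68 ± 0.40), Prim1 (0.52 ± 1.39) and Pola1 (0.28 ± 1.44) did not pass, and Prim1 and Pola1 went both ways among pairs. Prim1 and Pola1 encode the partners of Prim2 and Pola2 in 1 complex.

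Of 7 clamp and clamp loader genes, Rfc5 (1.38 ± 0.68) and Dscc1, a subunit of an alternative clamp loader (2.21 ± 1.80, adjusted p = 0.047), rose. Dscc1 differed by 1.26, 1.09 and 4.29 in the 3 pairs, so pair 3 carried most of its mean. Pcna itself had a difference of 0.66 ± 0.41 (adjusted p = 0.208), Rfc2 of 0.62 ± 0.24 and Rfc4 of 1.29 ± 1.84. Rfc1, the large subunit of the main clamp loader, had 8.90, 9.46 and 8.47 in WT and 7.84, 7.28 and 8.26 in KO. It lay lower in KO in all 3 pairs (-1.15 ± 0.98, adjusted p = 0.0813). Rfc1 and Orc2, singled out after their values were seen, were the 2 genes of the set lower in every pair in IL-2. Rfc3 differed little, with 9.25, 9.25 and 9.0 in WT and 8.85, 8.85 and 9.10 in KO (-0.24 ± 0.29).

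In nucleotide supply, Rrm2, the regulated subunit of ribonucleotide reductase, had 13.39, 13.37 and 12.56 in WT and 14.60, 14.62 and 15.43 in KO. It rose by 1.78 ± 0.95 (adjusted p = 0.0246), while its partner Rrm1 (1.09 ± 0.98, adjusted p = 0.106) and thymidine kinase Tk1 (1.68 ± 1.15, adjusted p = 0.052) did not pass. Lig1, which seals Okazaki fragments, differed by 1.10 ± 0.68 (adjusted p = 0.0534) and the flap nuclease Fen1 by 0.50 ± 0.22. On its other, dimmer probe set Fen1 differed by 1.58 ± 0.67. In total 7 of the higher genes missed the threshold with an adjusted p between 0.05 and 0.1. Neither of the G1/S cyclins, Ccne1 and Ccne2, passed the test in IL-2. Ccne1 had 12.55, 12.23 and 12.27 in WT and 12.31, 12.63 and 12.59 in KO (0.16 ± 0.34), and Ccne2 differed by 1.09 ± 1.96, with pair 3 at 3.35 and the other pairs at -0.03 and -0.07. A second, dimmer Ccne1 probe set had a difference of 1.11 ± 0.38, so the probe sets of Ccne1 did not give the same size.

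**Figure D1:**
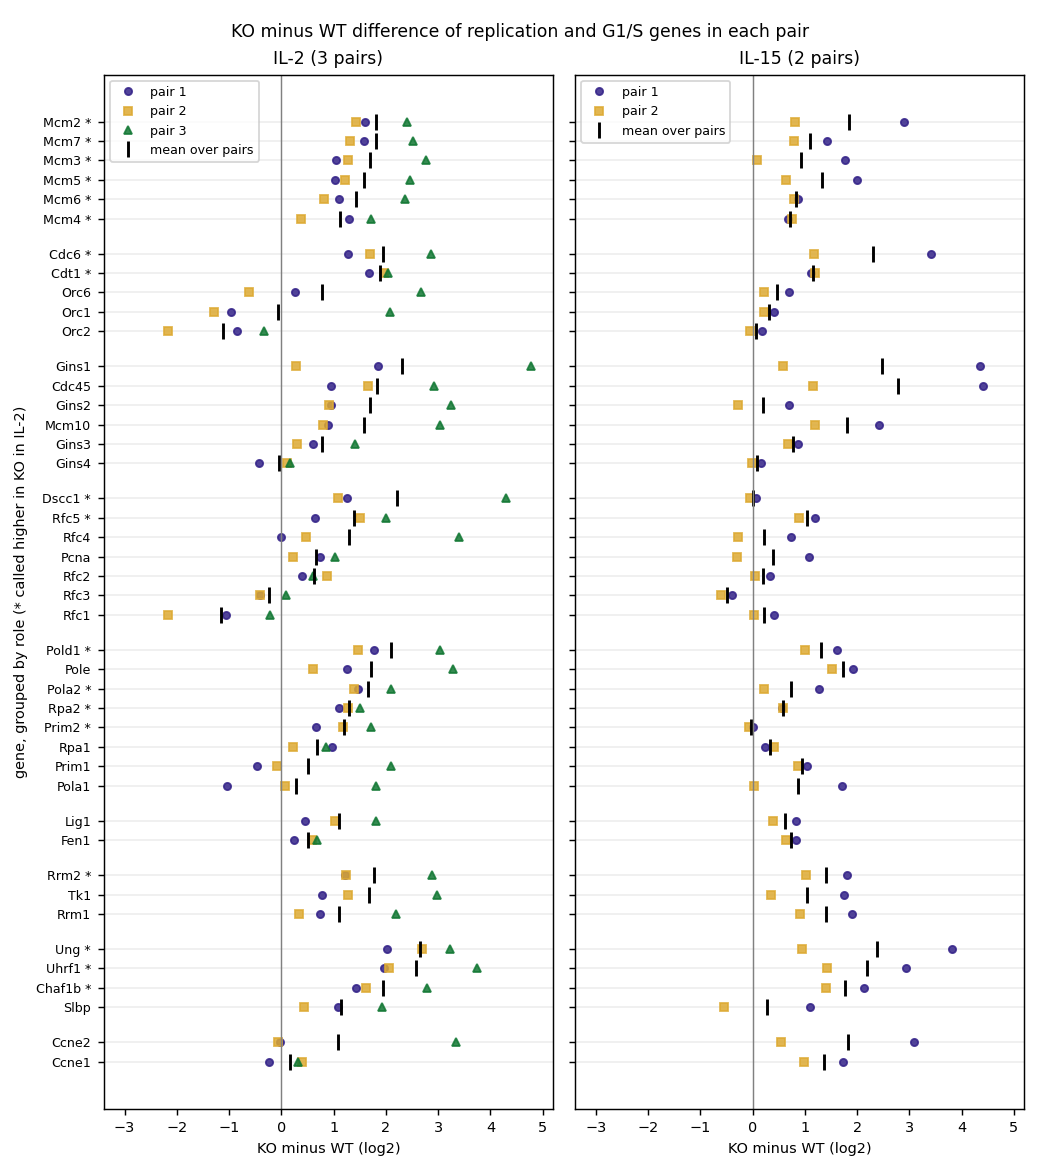
KO minus WT difference (log2) of each of the 43 tested genes in each numbered pair of arrays (symbols) with the mean over pairs (tick), for IL-2 (3 pairs) and IL-15 (2 pairs), grouped by role; asterisks mark the 18 genes that rose in IL-2. Most means lie to the right of 0 under both cytokines. In IL-2, 5 means lie to the left, those of Rfc1 and Orc2 farthest, and pair 3 lies farthest right in 40 genes.

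**Figure D2:**
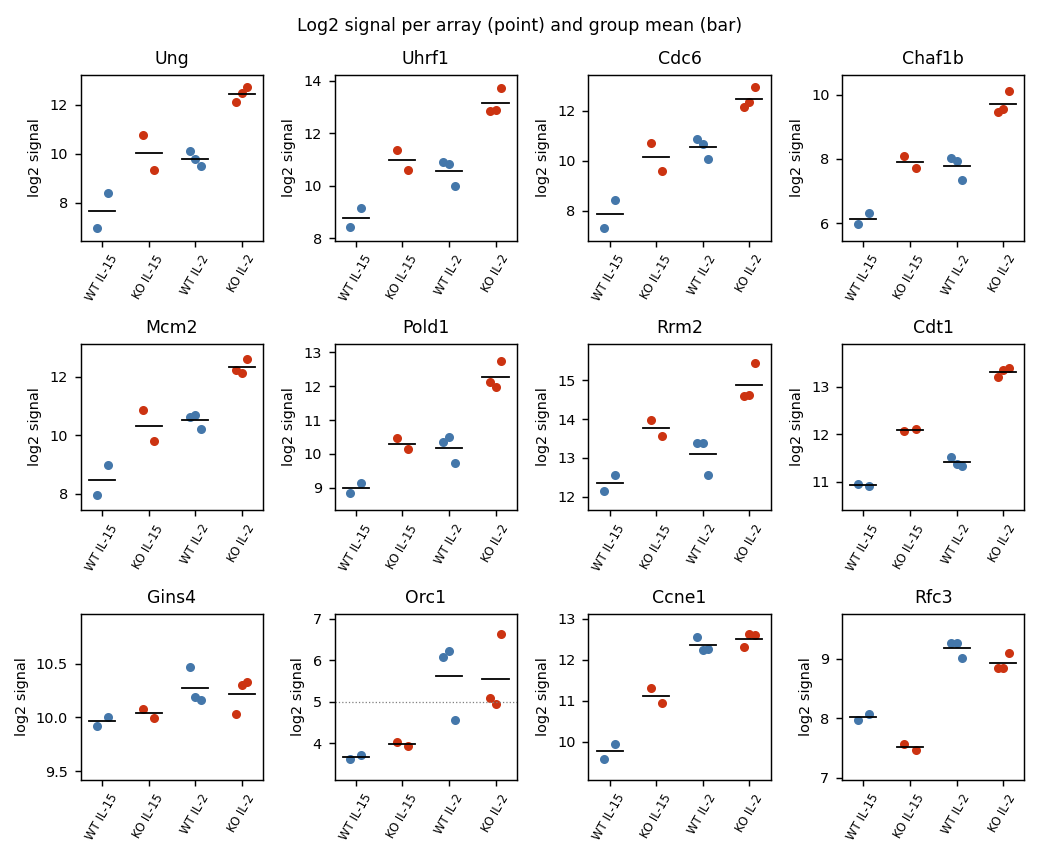
Log2 signal in every array (blue points WT, red points KO) with the group mean (bar). The first 8 genes are the called ones among the 12 with the largest mean absolute difference over both cytokines. The last 4 are those with the smallest IL-2 differences. The dotted line, where a panel shows it, is log2 5. In the first 8 panels KO lies above WT within each cytokine without overlap, and in the IL-2 columns of Gins4, Orc1, Ccne1 and Rfc3 the points overlap. Both patterns are favoured by the choice of these genes by their differences. Among all tested genes 17.6% were higher in KO in all 5 pairs.

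The size of the difference went with the pair. In IL-2 the median over the set was 0.95 in pair 1, 0.81 in pair 2 and 2.20 in pair 3, while the median over all tested genes was 0.29, 0.01 and 0.03. Pair 3 gave the highest difference in 40 of the 43 genes, compared with 30.8% of tested genes. All 3 pairs were nevertheless on the same side in 32 genes higher in KO (background 31.1%) and in 2 lower (background 23.2%). Leaving out pair 3 left 8 of the 18 calls and added Rfc1 and Orc1 as lower, leaving out pair 2 left 9 and leaving out pair 1 left 3 (Cdt1, Chaf1b and Rfc5). The median of the set without a pair was 0.93 to 1.66. In IL-15, pair 1 (median 1.12) exceeded pair 2 (median 0.59) in 39 of the 43 genes, compared with 54% of tested genes. What the arrays of a pair shared is not stated, and mouse and day of culture cannot be told apart. Of sex-linked genes, Xist was at 4.64 to 5.37 in every IL-2 array and at 14.28 to 14.66 in every IL-15 array. Eif2s3y was at 7.31 to 9.17 and at 2.34 to 2.43. A part of sex in the pair pattern was not tested.

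**Figure D3:**
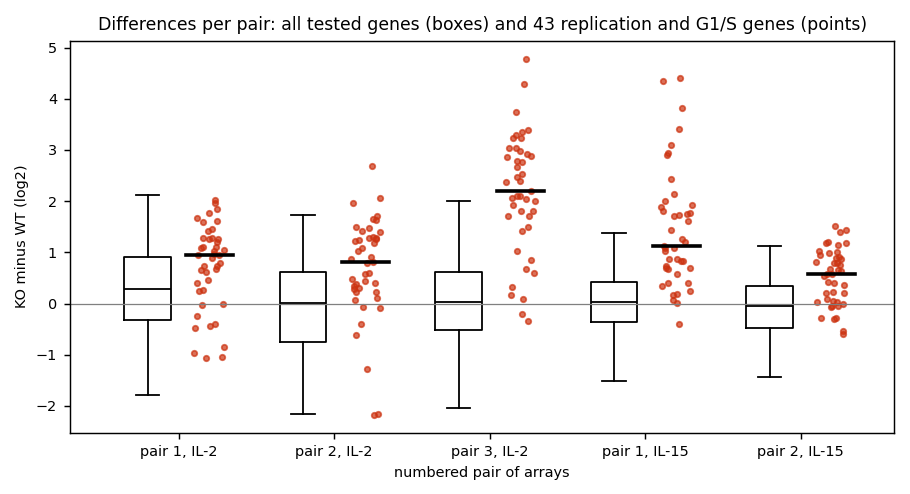
KO minus WT difference (log2) in each of the 5 pairs for the 9391 tested genes (boxes with median and quartiles) and for the 43 replication and G1/S genes (points, with their median as a bar). The bar lies above the box median in every pair, between 0.59 for pair 2 in IL-15 and 2.20 for pair 3 in IL-2.

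The same question was asked in IL-15, where each comparison rests on 2 pairs. None of the 43 genes passed the test in either direction by limma (lowest adjusted p = 0.116, for Chaf1b), where 0.458% of all tested genes rose and 0.841% fell (1.3% in either direction). At an unadjusted p under 0.05, 17 genes were higher and 0 lower. The median difference was 0.87, beside -0.01 over all tested genes, and 41 genes lay above 0, compared with 49.1% of tested genes. KO lay above WT in both pairs in 34 genes (background 31.7%) and below it in 1, Rfc3 (background 32.9%). Without the pair as a block, which counts residual degrees of freedom that the removal of pair differences had used, 16 genes would have been called higher.

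Of the 10 genes with the highest differences in IL-15, 5 had risen in IL-2, close to the share of the whole set (18 of 43, 41.9%). Cdc45 had 4.26 and 5.88 in WT and 8.66 and 7.03 in KO, a difference of 2.78 ± 2.30 that rested on pair 1. Ung had 6.95 and 8.38 in WT and 10.76 and 9.33 in KO (2.38 ± 2.03), and Cdc6 had 7.31 and 8.42 in WT and 10.72 and 9.60 in KO (2.30 ± 1.58). In these 3 genes both KO arrays were above both WT arrays, and pair 1 differed by far more than pair 2. Uhrf1 (8.42 and 9.17 against 11.36 and 10.60; 2.18 ± 1.07) and Chaf1b (5.95 and 6.32 against 8.09 and 7.72; 1.77 ± 0.52) were more even. Mcm2 had 7.94 and 8.99 in WT and 10.85 and 9.80 in KO (1.85 ± 1.48). Rrm2 had 12.16 and 12.55 against 13.97 and 13.57 (1.41 ± 0.56), and Pold1 8.84 and 9.15 against 10.46 and 10.15 (1.31 ± 0.43). Cdt1, with 10.95 and 10.91 in WT and 12.07 and 12.11 in KO, had the closest pairs of this group (1.16 ± 0.06, adjusted p = 0.127).

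Other genes of the set were near 0 in IL-15. Differences were -0.03 ± 0.06 for Prim2, 0.01 ± 0.08 for Dscc1, 0.06 ± 0.16 for Orc2 and 0.08 ± 0.12 for Gins4, with 9.92 and 10.01 in WT and 10.08 and 9.998 in KO for the last. Prim2 and Dscc1 had risen in IL-2. Orc1 lay at 3.63 and 3.72 in WT and at 4.03 and 3.94 in KO, under log2 5 throughout. Rfc3 had 7.97 and 8.08 in WT and 7.58 and 7.47 in KO (-0.50 ± 0.15). Ccne1 had 9.57 and 9.95 in WT and 11.31 and 10.93 in KO (1.36 ± 0.53, adjusted p = 0.127), and its dimmer probe set differed by 0.87 ± 1.48.

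Whether the KO effect differed between the cytokines was tested as the difference of both differences. It passed for 0 of the 43 genes and for 0% of all tested genes by limma (lowest adjusted p in the set 0.377). At an unadjusted p under 0.05 there were 2 genes: Prim2, with a KO effect lower by 1.22 in IL-15, and Ccne1, with one higher by 1.20. The signed KO minus WT difference was lower in IL-15 than in IL-2 in 27 of the 43 genes, compared with 58.4% of tested genes. This counts direction and not the size of the effect. Rfc1 was lower in KO in all 3 pairs in IL-2 and higher in both pairs in IL-15 (0.22 ± 0.27), with an adjusted p of 0.449 for the difference. Genes that rose in IL-2 and did not pass in IL-15 were thus not shown to respond differently.

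Levels across the 4 groups were then set side by side. KO in IL-2 had the highest group mean in 34 of the 43 genes (32.2% of tested genes) and WT in IL-15 the lowest in 30 (21.6%). Both held in 27 (15.5%). The median level relative to each gene's own mean over the groups was -0.90 in WT with IL-15, 0.08 in KO with IL-15, -0.20 in WT with IL-2 and 0.97 in KO with IL-2. KO NKC in IL-15 minus WT NKC in IL-2 had a median of 0.28 over the genes (range -1.65 to 1.76), beside 0.15 over all tested genes.

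**Figure D4:**
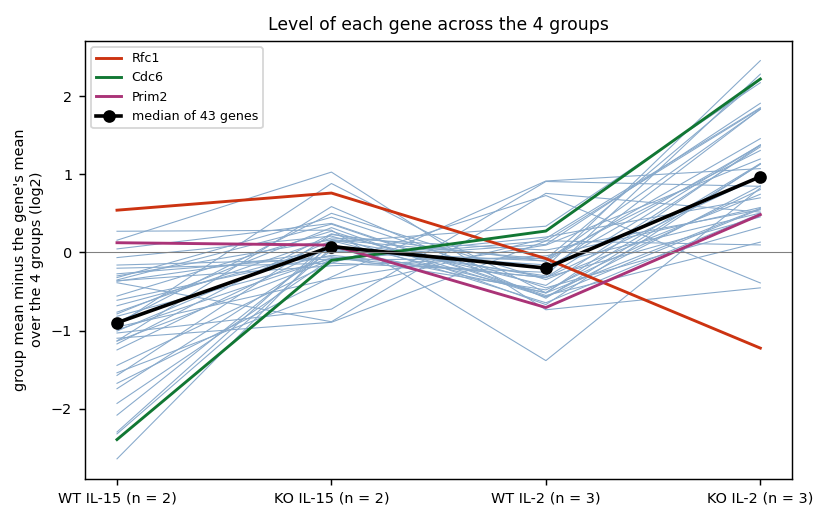
Group mean of each of the 43 genes minus its mean over the 4 groups (log2; n is the number of arrays), with the median over the genes in black and 3 genes coloured. The median is -0.90 in WT and 0.08 in KO with IL-15, and -0.20 in WT and 0.97 in KO with IL-2, and Rfc1 is lowest in KO with IL-2.

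More replication genes were lower than higher in IL-15 against IL-2. In WT NKC 18 of the 43 were lower and 3 higher in IL-15 (background 18.7% lower, 29.4% higher and 48% in either direction), with a median of -0.67 beside 0.18 over all tested genes. Cdc45 (-2.98), Cdc6 (-2.67), Ccne1 (-2.59) and Ung (-2.13) were the lowest of the 18, and Dscc1 (1.66), Prim2 (0.83) and Rpa1 (0.60) were higher. In KO NKC 22 were lower and 2 higher (background 22.5% lower, 23.6% higher and 46.1% in either direction), with a median of -1.01 beside -0.08. Gins2 (-2.74), Ung (-2.40) and Tk1 (-2.35) were the lowest of the 22, and Rfc1 (1.99) and Pola1 (1.48) were higher. The 3 higher calls in WT were lost when arrays were centred on the median of the tested genes. Leaving out WT array 1 in IL-15 left 8 lower and 1 higher in WT. These fits had no pair block, and since pair differences had been removed their p-values are too small by an unknown amount. Sex could not be told apart from cytokine: Xist, expressed from the inactive X, was at 14.28 to 14.66 with IL-15 and 4.64 to 5.37 with IL-2, and Eif2s3y of the Y chromosome at 2.34 to 2.43 and 7.31 to 9.17.

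Further probe sets of the same genes were compared, since probe sets of 1 gene are separate measurements on the same arrays. Of the 43 genes, 26 had more than 1 probe set at the testing level. All probe sets of a gene had the same direction in 26 of the 26 in IL-2 and in 25 in IL-15, the exception being Rfc3. The gap between the highest and the lowest difference of a gene had a median of 0.23 with IL-2 and 0.29 with IL-15, and was largest for Gins1 (1.97 and 1.72).

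Other genes of the cycle were described by lists that were also drawn up with earlier results known. In IL-2, 10.5% of all tested genes rose and 9.17% fell, with a median difference of 0.11. Of 42 other replication genes 11 rose in IL-2 and 1 fell, with a median of 0.78. The highest differences were those of the fork protector Timeless (2.31 ± 0.96), the histone chaperone Asf1b (2.24 ± 0.87), the clamp loader subunit Chtf18 (2.09 ± 0.83), which all rose, and the nuclease Dna2 (1.95 ± 1.72), which did not pass. Of 20 genes of G1/S control 10 rose and 1 fell, with a median of 1.0. E2f2 (3.12 ± 0.77), E2f8 (2.86 ± 0.69) and E2f7 (2.71 ± 0.95), of which the last 2 are repressors, rose together with Cdkn2c, an inhibitor of Cdk4 and Cdk6 (2.32 ± 0.11). The gene that fell was Myb, named for its count of 1 (-1.90 ± 0.55). In IL-15, where 0.458% of all tested genes rose and 0.841% fell, Cdkn2c was the 1 gene of the 4 cell cycle lists to pass (1.87 ± 0.05, adjusted p = 0.038). E2f2 (2.31 ± 0.20), E2f7 (1.86 ± 0.03) and E2f8 (1.86 ± 0.46) did not. With so few calls among all genes, 1 call is no result about the lists.

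Of 19 mitosis genes 11 rose in IL-2 and 0 fell, with a median of 1.64, where 10.5% of all tested genes rose. Separase Espl1 (2.33 ± 0.77), the kinases Aurkb (2.20 ± 0.72) and Plk1 (2.18 ± 0.75) and the ubiquitin-conjugating enzyme Ube2c (2.13 ± 1.36) led. In IL-15 0 of them passed by limma, and their median was 0.69 beside 0.87 for the replication set, a difference between lists that was not tested. Checkpoint and p53 target genes had no common direction in IL-2. Of 16, 4 rose and 3 fell (background 10.5% and 9.17%), with a median of 0.23 beside 0.11 over all tested genes. Gadd45a (2.06 ± 1.31) and the recombination factor Rad51ap1 (1.88 ± 1.37) rose, and the p53 target Mdm2 (-1.94 ± 0.33) and the checkpoint kinase Atr (-1.89 ± 1.23) fell.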

How the data were processed

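RNA of cultured splenic NKC was hybridised to Affymetrix mouse arrays with 45101 probe sets. Per the labels and methods, the authors computed the deposited log2 signals with GC-RMA in Partek (versions not given in the sources used here). Values were used on this log2 scale without further scaling. Probe sets were named through the platform gene table, in which 34958 had 1 symbol, 932 had several and 9211 were not listed, and 34754 gene identifiers matched GRCm38.p6 with 0 symbols changed. A gene took its probe set with the highest mean over the 10 arrays and was tested where this reached log2 5 in at least 2 arrays. Differences between numbered pairs had been removed before deposit, so KO minus WT was fitted to all 10 arrays with the pair as a block (limma 3.58.1, R 4.3.3, 3 residual degrees of freedom), and IL-15 minus IL-2 without a block (6 residual degrees of freedom). The fit was tested on simulated data. A call needed at least 1.5-fold and an adjusted p (Benjamini-Hochberg) under 0.05, the interaction the p alone. Genes given array by array were the called ones among the 12 with the largest mean absolute difference over both cytokines and the 4 with the smallest IL-2 difference. From each other cell cycle list up to 4 with the largest IL-2 difference were given as mean ± SD. Cdc45, Gins1, Dscc1, Ccne2 and Rfc1 were given by array or pair, and Orc2 was singled out, after their values were seen. The set, the lists and the design were chosen with earlier results of these data known. Cell type markers were listed for NKC, T cells, B cells, macrophages and monocytes, dendritic cells, mast cells and basophils, granulocytes, and erythroid cells and platelets.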

Additional observations from a re-analysis of the deposited data

How the results depend on the processing

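Every median KO minus WT difference of the 43 genes kept its sign under all alternatives run, at 1.10 to 1.29 in IL-2 and 0.82 to 0.90 in IL-15 with other filters, scalings or probe sets, at 0.93 to 1.66 and 0.59 to 1.12 without 1 array. The count of genes higher in KO in IL-2 was less stable: against 18, it was 29 without the pair block, 2 with no filter on low values (adjusted p of the 18 genes 0.0119 to 0.194) and 30 at an unadjusted p, and 3 to 14 without 1 array. Lower genes numbered 2 (Orc2 and Rfc1) without the pair block and 2 at an unadjusted p, and 0 to 2 without 1 array. In IL-15 higher genes numbered 16 without the pair block and 17 at an unadjusted p. The interaction gave 4 genes without the pair block and 2 at an unadjusted p. Genes higher in IL-15 than in IL-2 in WT numbered 0 after centring each array on its median, 0 after quantile normalization and 1 with the mean of all probe sets, and 1 to 4 without 1 array; in KO there was 1 with no filter, 1 after centring, 1 after quantile normalization and 1 with the mean of probe sets, and 1 to 2 without 1 array. Genes lower in IL-15 in WT numbered 8 to 21 without 1 array. Centring on the median of all probe sets was chosen after seeing the data and changed no count by over 1.5 times. Whether the numbers pair biological samples cannot be checked, since pair differences had been removed.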
